A study of Rattus norvegicus with 6 samples.

Results

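*Hcn2*, *Hcn3* and *Hcn4*, which encode subunits of the hyperpolarization-activated cyclic nucleotide-gated (HCN) channels, were followed in RNA-seq of rat spinal cord tissue. They were found by their gene symbols among the 22050 genes of the deposited table, each with 1 entry, and all 3 passed the filter on low counts that left 14426 genes for testing. The samples were 3 libraries of sham rats, which had surgery without nerve injury, and 3 of SNI-NP rats. In the SNI-NP rats spared nerve injury of the sciatic nerve was used to produce neuropathic pain (NP). The study worked with adult male Sprague-Dawley rats, and no genotype or drug distinguished the groups. The labels give neither the time after surgery nor the segment and side of the cord for these libraries. They also do not say that the 3 replicates of a group were separate animals. The p-values thus measure the spread between these samples, which may be technical. Where rats are counted below, the count is of libraries.

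HCN channels are opened by hyperpolarization rather than depolarization and carry an inward cation current, known as Ih or the pacemaker current, that pulls the membrane back toward firing threshold. Cyclic AMP binds to the intracellular end of the subunits and makes the channels open more readily, strongly for HCN2 and HCN4, while HCN3 is little affected or shifted the other way. Subunits assemble as tetramers, alone or mixed. In pain research the family is studied because Ih sets the excitability of sensory neurons, where HCN2 is a main subunit, and of neurons of the dorsal horn.

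Each library held between 16670760 and 18151156 estimated counts. Although the tissue was labelled spinal cord, *Prx*, which encodes periaxin of Schwann cell (peripheral) myelin, was at 4032 to 4639 CPM in sham rats and at 4669 to 6419 CPM in SNI-NP rats (CPM expresses counts for libraries of equal effective size, by TMM). All 12 markers of dorsal root ganglion neurons were detected, with a summed level of 542 to 1186 CPM in sham rats and of 119 to 1551 CPM in SNI-NP rats. The spinal cord markers were also present. Inhibitory neurons, marked by *Gad1*, *Gad2*, *Slc6a5* and other genes, had a summed level of 135 to 419 CPM in sham rats and of 158 to 251 CPM in SNI-NP rats, and none of the genes in these lists was at 0 in all libraries. The libraries thus held markers of both central and peripheral nerve tissue. In such bulk tissue fewer cells of a type and less RNA per cell cannot be told apart.

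*Hcn2* was by far the most abundant of the 3 genes, and none of them differed between the groups beyond the spread of the replicates. Levels of different genes were compared as FPKM, the deposited unit in which a count is divided by gene length and library total. Averaged over the 6 libraries, *Hcn2* was at 45.2 FPKM, *Hcn4* at 2.90 and *Hcn3* at 1.73. *Hcn2* lay above 87.7% of the tested genes, *Hcn4* above 26% and *Hcn3* above 17.2%. The lowest *Hcn2* value of any library, 28.1 FPKM, was above the highest *Hcn4* value, 3.60 FPKM. The neighbours *Hcn4* and *Hcn3* were closer, since their ranges of 2.05 to 3.60 and 0.96 to 2.5 FPKM overlapped, but *Hcn4* was above *Hcn3* within each library, where the *Hcn3* to *Hcn4* ratio was 0.432 to 0.796.

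**Figure D1:**
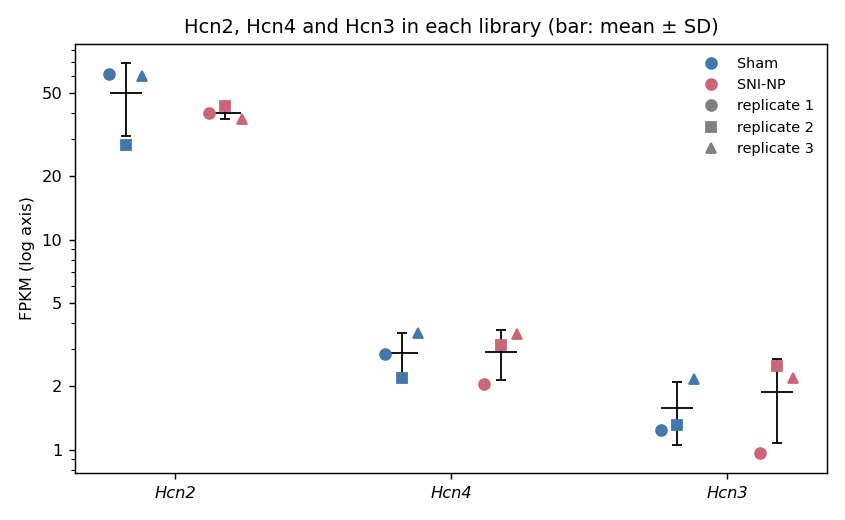
FPKM (log axis) of *Hcn2*, *Hcn4* and *Hcn3* in the 3 sham (blue) and 3 SNI-NP (red) libraries, with marker shapes for the replicates and black bars for the mean and SD of each group. *Hcn2* sits far above the other genes at 28.1 to 61.7 FPKM, and for each gene the red and blue points overlap.

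*Hcn2* (ENSRNOG00000008831), which encodes the strongly cAMP-sensitive subunit of many central and sensory neurons, was counted 2614, 1219 and 2619 times in the sham rats, against 1857, 1956 and 1663 times after nerve injury. In CPM the sham values were 157, 68.7 and 152, and the SNI-NP values 107, 109 and 96.4. The sham rats therefore held both the highest levels and the lowest, and all 3 SNI-NP rats lay between Sham replicate 2 and the other sham rats. Sham rats averaged 126 ± 49.7 CPM, SNI-NP rats 104 ± 6.60 (mean ± SD, n = 3 each). This is a log2 fold change of -0.28 (standard error, SE, 0.29, 95% interval -0.95 to 0.40), for which edgeR's quasi-likelihood test gave an adjusted p of 0.727 and DESeq2 one of 0.780. This interval runs from 0.517 times to 1.32 times the sham level.

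The spread of *Hcn2* differed in size between the groups. The highest sham level was 2.29 times the lowest, against 1.13 times in SNI-NP rats. On the log2 scale the SD among the sham libraries was 0.68, above that of 93.6% of the tested genes, whereas the SD among the SNI-NP libraries was 0.093, above that of 18%. This difference in spread was not tested. Without Sham replicate 2 the log2 fold change of *Hcn2* was -0.57 (SE 0.099), and edgeR gave it an unadjusted p of 0.00104 and an adjusted p of 0.203. In that fit 2134 of all genes tested had an unadjusted p under 0.05, against 1565 with all libraries, and 2 had an adjusted p under 0.05. Without Sham replicate 1 or Sham replicate 3 the log2 fold change of *Hcn2* was -0.095 and -0.14.

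*Hcn3* (ENSRNOG00000020444), which encodes the subunit least responsive to cAMP, had estimated sham counts of 132.53, 143.01 and 237.83 and SNI-NP counts of 111.69, 286.9 and 246. In CPM these were 7.98, 8.06 and 13.9 against 6.44, 15.9 and 14.3. The lowest and the highest of the 6 levels both belonged to SNI-NP rats, so the groups overlapped fully. The sham level was 9.96 ± 3.37 CPM and the SNI-NP level 12.2 ± 5.07 (mean ± SD, n = 3 each). On the log2 scale SNI-NP rats differed by 0.29 (SE 0.37, 95% interval -0.58 to 1.17), with an edgeR adjusted p of 0.786 and a DESeq2 adjusted p of 0.854. The value was 0.60 (SE 0.27) without SNI-NP replicate 1, 0.58 without Sham replicate 3, 0.056 without SNI-NP replicate 2, and between 0.15 and 0.17 without any one of the remaining libraries. It was 0.54 with a correction for gene length.

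The count of *Hcn3* was a whole number in 1 of 6 libraries, unlike those of *Hcn2* and *Hcn4*, which were whole in all 6. *Pklr*, the gene of liver and red cell pyruvate kinase, lies beside *Hcn3* and overlaps its end in the RefSeq annotation of rat assembly GRCr8. Its own counts were 7.47, 1 and 11.17 for the sham and 23.36, 7.13 and 12 for the SNI-NP libraries. The counts of *Hcn3* and *Pklr* summed to 140, 144.01 and 249 (sham) and to 135.05, 294.03 and 258 (SNI-NP), which is whole, or off by no more than 0.05, in each library. How the counts were divided between the genes was not tested. With both counted as 1 gene the log2 fold change was 0.33 (SE 0.34).

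*Hcn4* (ENSRNOG00000009450), the slow and cAMP-sensitive subunit best known from the pacemaker cells of the heart, was counted 264, 207 and 340 times in the sham libraries, against 205, 310 and 342 times in the SNI-NP libraries. The sham levels were 15.8, 11.7 and 19.8 CPM, and the SNI-NP levels 11.8, 17.2 and 19.8 CPM. Both groups thus covered nearly the same range. Their averages were 15.8 ± 4.07 CPM (sham) and 16.3 ± 4.10 CPM (SNI-NP) (mean ± SD, n = 3 each). The corresponding log2 fold change of 0.046 (SE 0.26, 95% interval -0.55 to 0.64) had an edgeR adjusted p of 0.960 and a DESeq2 adjusted p of 0.984. Its sign changed when Sham replicate 2 (-0.12) or SNI-NP replicate 3 (-0.15) was left out. It was 0.22 without Sham replicate 3, 0.23 without SNI-NP replicate 1, 0.0047 without SNI-NP replicate 2, and 0.24 with a correction for gene length.

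For all genes tested, calls were as follows. By edgeR's quasi-likelihood test 0% of the 14426 genes had an adjusted p under 0.05, the smallest adjusted p being 0.116, while DESeq2 gave 210 genes. At an unadjusted p under 0.05 edgeR gave 1565 genes (10.8%), 5.94% lower and 4.91% higher in SNI-NP rats. None of the 3 members passed at the unadjusted threshold by either tool. For 8.15% of the genes every SNI-NP rat was below every sham rat and for 10.4% every SNI-NP rat was above, and the count of members in either class was 0 of 3.

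**Figure D2:**
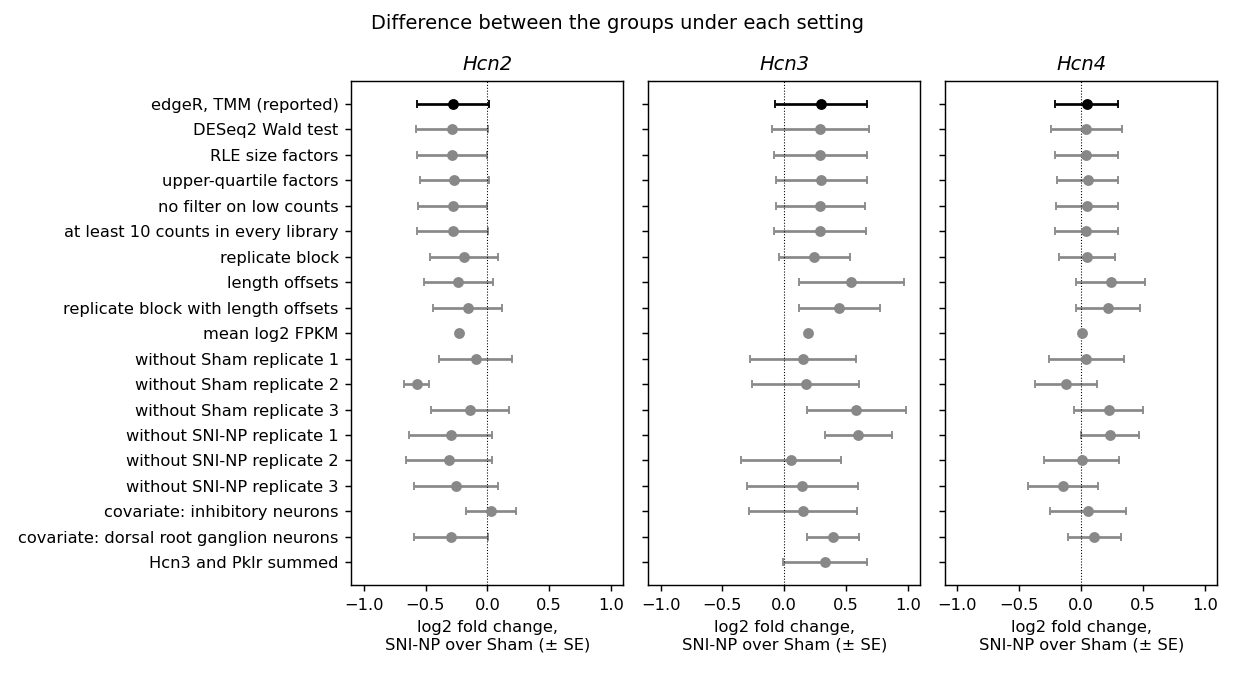
log2 fold change of *Hcn2*, *Hcn3* and *Hcn4* (x axis, SNI-NP over sham) under each setting (y axis), with horizontal bars for the standard error where a model gave one and the reported value in black. *Hcn2* moved from -0.28 to -0.57 without Sham replicate 2 and to 0.030 with the inhibitory neuron markers as a covariate, while *Hcn4* stayed between -0.15 and 0.24.

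No difference in the balance of the 3 genes between the groups was detectable with 3 libraries each. The FPKM of *Hcn2*, *Hcn3* and *Hcn4* summed to 65.8, 31.6 and 66.0 in sham rats and to 43.3, 48.7 and 43.3 in SNI-NP rats. The low sum of Sham replicate 2 came from *Hcn2*. The log2 difference of the sums was -0.20 (two-sided exact permutation test, p = 0.8, n = 3 per group). *Hcn2* exceeded *Hcn4* by 12.8 to 21.5 times in sham rats and by 10.5 to 19.6 times in SNI-NP rats, a log2 difference of -0.23 (exact permutation p = 0.5). It exceeded *Hcn3* by 21.5 to 49.8 times in sham rats and by 17.1 to 41.9 times in SNI-NP rats, a log2 difference of -0.42 (exact permutation p = 0.5). The *Hcn3* to *Hcn4* ratio differed by 0.19 on the log2 scale (exact permutation p = 0.4). A comparison of 3 libraries with 3 cannot give a two-sided exact p below 0.1, so these tests could not pass the 0.05 threshold.

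The level of *Hcn2* moved with some marker lists of the central tissue and not with others. Sham replicate 2, where *Hcn2* was lowest, also had the lowest summed level of the 7 inhibitory neuron markers, 135 CPM, against 419 and 292 CPM in the other sham rats and 251, 163 and 158 CPM in SNI-NP rats. The 7 astrocyte markers, *Gfap*, *Aqp4* and others, summed to 3207, 1321 and 2472 CPM in sham rats and to 2020, 1741 and 1596 CPM in SNI-NP rats, again lowest in Sham replicate 2. For the 8 oligodendrocyte markers the sums were 30565 to 41274 CPM in sham rats and 30257 to 40322 CPM in SNI-NP rats. The lowest sum was in SNI-NP replicate 2, whereas the mean log2 level of this list was lowest in Sham replicate 2. The SD of log2 *Hcn2* over the 6 libraries was 0.44, and it was 0.30 after the mean log2 level of the inhibitory neuron list was subtracted, and 0.23 after the astrocyte or the oligodendrocyte list was. It was 0.39 after the pan-neuronal list, but 0.64 after the excitatory neuron list, 0.54 after the microglia list and 1.44 after the dorsal root ganglion list. With the inhibitory neuron level as a covariate, which was chosen after its likeness to *Hcn2* in these libraries had been seen, the log2 fold change of *Hcn2* was 0.030 (SE 0.20) in place of -0.28. The part of tissue make-up in the *Hcn2* levels was not tested.

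*Hcn3* and *Hcn4* followed another pattern, with a low level in SNI-NP replicate 1, although *Hcn4* was as low in Sham replicate 2. *Hcn3* was at 6.44 CPM in SNI-NP replicate 1, but also at 7.98 and 8.06 CPM in Sham replicates 1 and 2. In SNI-NP replicate 1 the 12 dorsal root ganglion markers summed to 119 CPM, against 1551 and 1136 CPM in the other SNI-NP rats and 542, 1028 and 1186 CPM in sham rats. *Scn10a*, the sensory neuron sodium channel Nav1.8, was at 14.3 CPM there and at 88.1 to 277 CPM in the other libraries. The 15 pan-neuronal markers were also lowest there, at 3356 CPM, against 6435 to 9266 CPM in sham rats and 6465 and 8146 CPM in the other SNI-NP rats. The 6 tested motor neuron markers, which include *Prph* and *Ret* that sensory neurons share, summed to 241 CPM in SNI-NP replicate 1 and to 448 to 1050 CPM elsewhere. The SD of log2 *Hcn3* was 0.54 over the 6 libraries and 0.42 after subtraction of the motor neuron list, but 0.95 after the dorsal root ganglion list, which varied more than the gene did. For *Hcn4* the SD was 0.34 and 0.31 after the motor neuron list. It was 0.35 after the pan-neuronal list, 0.47 after the excitatory and 0.66 after the inhibitory neuron list, and 1.16 after the dorsal root ganglion list. With the dorsal root ganglion level as a covariate, again added after seeing the data, the log2 fold change was 0.39 (SE 0.21) for *Hcn3* and 0.10 (SE 0.22) for *Hcn4*.

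**Figure D3:**
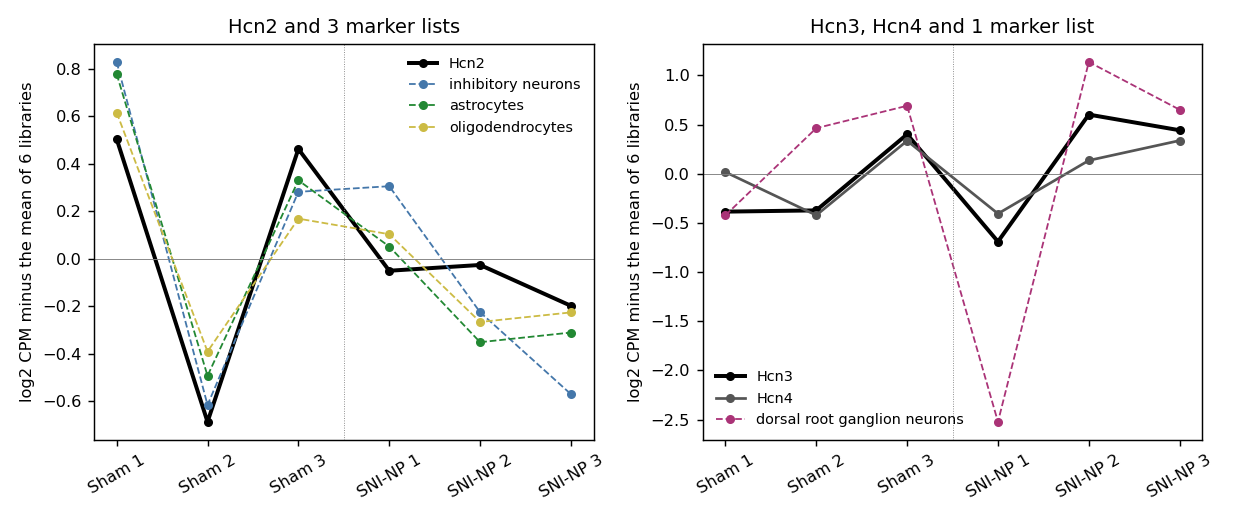
log2 CPM minus the mean of the 6 libraries (y axis) in each library (x axis), for *Hcn2* with 3 marker lists on the left and for *Hcn3* and *Hcn4* with the dorsal root ganglion neuron list on the right, lists being the mean of their genes. *Hcn2* and its lists are lowest in Sham replicate 2, and *Hcn3* and the ganglion list are lowest in SNI-NP replicate 1.

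Each member was also set against the neuronal markers of its own library. The difference from the mean log2 level of the 15 pan-neuronal genes was -4.28, -3.87 and -3.68 for *Hcn3* in sham rats and -3.62, -2.94 and -2.94 in SNI-NP rats. For *Hcn4* it was -3.30, -3.34 and -3.17 in sham rats and -2.76, -2.83 and -2.47 in SNI-NP rats. The groups did not overlap in either case, which also held for 34.9% of all genes tested when set against this reference with every SNI-NP library higher, and for 0.277% with every SNI-NP library lower. The group difference was 0.77 for *Hcn3* and 0.58 for *Hcn4* on the log2 scale, each with an exact permutation p of 0.1, the smallest that this design allows. For *Hcn2* the groups overlapped and the difference was 0.35 (exact permutation p = 0.4). The reference itself differed by -0.54 between the groups (exact permutation p = 0.2), so a gene at an equal level in both groups would show a difference of 0.54. Of its 15 genes 13 had lower values in SNI-NP rats, with a median log2 fold change of -0.49 against 0.0057 over all genes tested. An unadjusted edgeR p under 0.05 was found for 6 of the 15 (40%, against 10.8% of all genes), and an adjusted p under 0.05 for 0 by edgeR and for 1 by DESeq2. Against the inhibitory neuron list, a reference added later, the differences were 0.57 for *Hcn3* and 0.37 for *Hcn4* (exact permutation p = 0.5 for each), and the groups overlapped. Against the dorsal root ganglion list they were 0.73 and 0.53 (exact permutation p = 0.5 and 0.8). The motor neuron list gave 0.65 and 0.46 (exact permutation p = 0.1 for each), and the excitatory neuron list 0.86 and 0.67 (exact permutation p = 0.1 and 0.2).

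The genes closest to each member in level over the 6 libraries also differed between the members. *Smap2*, *Shd* and *Flywch1* had the highest Pearson correlations with log2 *Hcn2*, of 0.998, 0.997 and 0.997. *Hspb1*, *Rnf19b* and *Eaf1* were closest to *Hcn3*, with correlations of 0.991, 0.986 and 0.985, and *Smpd3*, *Rasgef1a* and *Dgcr6* to *Hcn4*, with 0.990, 0.989 and 0.983. A correlation above 0.9 was reached with *Hcn2* by 564 genes (3.91% of those tested), with *Hcn3* by 217 (1.5%) and with *Hcn4* by 78 (0.541%). Between the members the correlation was 0.85 for *Hcn3* with *Hcn4*, 0.53 for *Hcn2* with *Hcn4* and 0.15 for *Hcn2* with *Hcn3*. These are descriptions of the 6 libraries, whose marker levels differed as given above. The part of tissue make-up in these correlations was not tested.

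HCN channels work with auxiliary proteins and are tuned by cAMP, which adenylyl cyclases make under the control of G proteins and phosphodiesterases break down. Of the 60 gene entries of these pathway lists that were tested, 40 had a log2 fold change below 0, as had 49.1% of all genes, and 20 above, and 7 had an unadjusted p under 0.05, which is 11.7% against 10.8% of all genes. None had an adjusted p under 0.05 by edgeR or DESeq2. Every SNI-NP rat was below every sham rat for 4 of the 60 and above for 4, against 8.15% and 10.4% of all genes. The count of 7 was 18 without Sham replicate 2 and between 2 and 5 without any one of the other libraries. Over all genes tested, the count of 1565 was 2134 without Sham replicate 2. It was between 908 and 1907 without any one of the other libraries.

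Among 16 tested HCN partners 6 had values below 0 and 10 above, with a median log2 fold change of 0.020. *Pex5l*, which encodes TRIP8b, the subunit that controls the trafficking and cAMP response of HCN channels, had levels of 49.9, 42.5 and 39.5 CPM without injury and of 35.7, 22.3 and 26.6 CPM with it. The groups did not overlap, as for 8.15% of all genes in this direction, and the log2 fold change of -0.64 (SE 0.19) had an edgeR adjusted p of 0.404. *Flna*, which encodes filamin A, a cytoskeletal protein that binds HCN channels, had a higher value in SNI-NP rats by 0.37 on the log2 scale (SE 0.14, edgeR adjusted p = 0.439).

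The 17 tested entries of adenylyl cyclases and G proteins included separate entries of *Gnas*. Of the 17, 12 had values below 0, with a median of -0.11. *Gnai2*, which encodes an inhibitory G protein, was the only one with an unadjusted p under 0.05 (log2 fold change 0.23). Of 16 cAMP phosphodiesterases 14 had values below 0, against 49.1% of all genes, with a median of -0.35. Of these 2 had an unadjusted p under 0.05 (12.5% of the list, against 10.8% of all genes), *Pde3b* at -0.65 and *Pde4d* at -0.67. The *Pde4d* levels were 6.0, 6.99 and 7.28 CPM (sham) and 5.75, 3.22 and 3.77 CPM (SNI-NP). Among 10 cAMP effectors 7 had values below 0, with a median of -0.092. *Prkacb*, a catalytic subunit of protein kinase A, had a log2 fold change of -0.35, and *Rapgef4*, the cAMP-activated exchange factor Epac2, one of -0.46. These 2 had an unadjusted edgeR p under 0.05 (20% of the list, against 10.8% of all genes) and an edgeR adjusted p of 0.443 each. Of the 6 cyclic nucleotide-gated channel genes, the relatives of the HCN family in sensory transduction, only *Cngb1* passed the filter on low counts, with a log2 fold change of -0.58. Several of these genes are neuronal, and their medians stand beside the lower pan-neuronal markers, whose part in them was not tested.

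**Figure D4:**
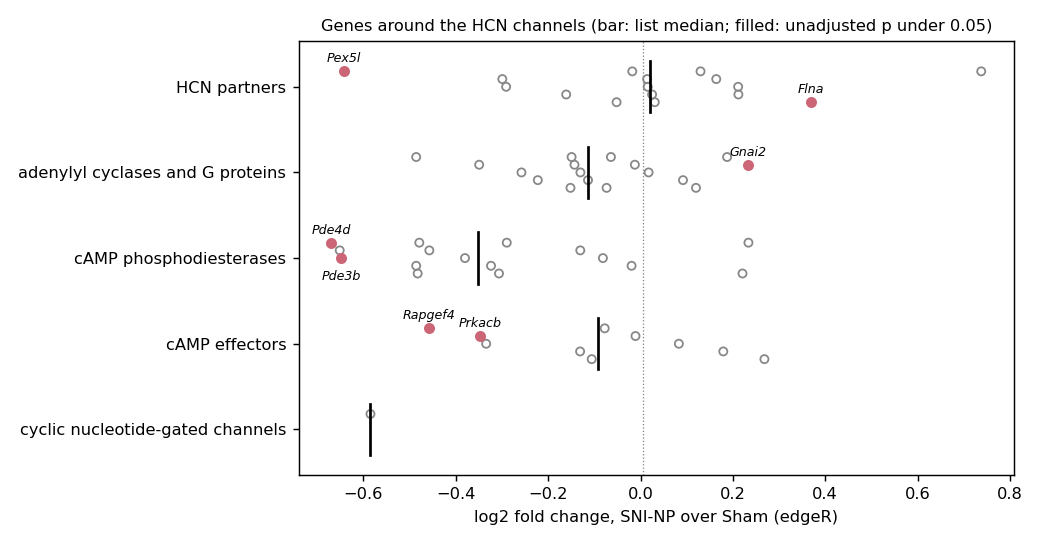
edgeR log2 fold changes (x axis, SNI-NP over sham) of the pathway lists (y axis), with 1 circle per gene entry. Circles are filled and named where the unadjusted p was under 0.05. A bar marks the median of each list and a dotted line the median of all genes. The phosphodiesterases sit mostly below 0 with a median of -0.35, and the partners spread around a median of 0.020.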

How the data were processed

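The authors sequenced 6 RNA-seq libraries (3 sham, 3 SNI-NP) and mapped the reads to the rat genome they call Rat6; the submitters' processing notes name FastQC, STAR and HTSeq, and the use of strand is not given in the sources used here. They deposited estimated counts per gene without normalization, which were rounded to whole numbers here, and FPKM values, which were used here to compare genes per length. Of the 17508 genes with a count, 2018 had a count that was not whole. edgeR 4.0.16 in R 4.3.3 was used for the quasi-likelihood test with condition as its single term, after filterByExpr and scaling by TMM, and p-values were adjusted (Benjamini-Hochberg) over the 14426 genes; DESeq2 1.42.0 was the alternative. CPM used TMM factors, and log2 CPM a prior count of 2. A gene at 0 could be at up to 0.165 to 0.180 CPM (3 counts), for counting error only. The scripts were tested on simulated data. Other alternatives were RLE and upper-quartile factors, other filters on low counts, loess offsets on gene length (span 0.5), the replicate number as a block, and leaving out each library.

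The members and the gene lists were chosen with earlier results of these data known. The text names the members, the pathway genes with an unadjusted p under 0.05, the 3 genes closest to each member, and markers that moved with a result; *Prx*, *Pklr* and *Cngb1* were named after their values were seen. Some genes of the lists are not reported here.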

Additional observations from a re-analysis of the deposited data

How the results depend on the processing

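The log2 fold change of each member stayed on the same side of 0.05 for the adjusted p under every setting that gave one. That of *Hcn2* turned to 0.030 with the inhibitory neuron covariate, chosen after seeing the data, and ranged from -0.57 to -0.095 when each library was left out. For *Hcn3* that range was 0.056 to 0.60, and for *Hcn4* it was -0.15 to 0.23, with -0.12 without Sham replicate 2. The cause was not tested. DESeq2 gave 210 genes with an adjusted p under 0.05 where edgeR gave 0; leaving out a library gave 0 to 222, with 222 without SNI-NP replicate 1. The 1565 genes with an unadjusted p under 0.05 became 908 to 2134 (908 without Sham replicate 1, 1019 without Sham replicate 3, 917 without SNI-NP replicate 3), and the 7 pathway genes 2 to 18.

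With the replicate number of the labels as a block, the log2 fold change was -0.19 for *Hcn2*, 0.24 for *Hcn3* and 0.046 for *Hcn4*. With length offsets added to the block it was -0.16, 0.45 and 0.22. At an unadjusted p under 0.05, 3 pathway genes passed in each of these fits. Over all genes tested, 1319 passed with the block and 1558 with length offsets added. Libraries with the same number had correlations of 0.214, -0.143 and 0.0538 between their deviations from the group means, and not every library correlated best with its own number, so the numbers were not taken as pairs. With 3 libraries per group, the 95% interval of each member held values of both signs, so a difference in either direction remained possible.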
